A study of Mus musculus with 6 samples.

Results

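The 10 genes described here encode chaperones and folding enzymes of the endoplasmic reticulum (ER), and were taken by name from the 41710 genes counted in mouse pancreatic islets. They are the lumen chaperones Hsp90b1, Hspa5 and Hyou1, the lectin chaperones Calr and Canx, the protein disulfide isomerases P4hb, Pdia3, Pdia4 and Pdia6, and the prolyl isomerase Ppib. Each symbol was found once in the files. For every gene, reads in exons, reads that cross an exon-exon junction and reads in introns were used.

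Islets came from 3 WT mice and 3 Trpm7R/R mice on a C57BL/6 background, with 1 library per mouse. Trpm7R/R mice carry a point mutation in both copies of Trpm7 that inactivates the kinase joined to this ion channel, in every cell of the body and not in islet cells alone. All mice, WT included, had eaten an obesogenic diet with 45% of its energy from fat for 16 weeks from the age of 8 weeks, so every comparison is between mice on this diet. Isolated islets were kept in culture medium before lysis and low-input library preparation, and libraries carry the numbers 1, 2 and 3 in WT and 4, 6 and 8 in Trpm7R/R.

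Secreted and membrane proteins fold in the ER, and insulin-producing beta cells pass large amounts of proinsulin through it. BiP, encoded by Hspa5, holds unfolded chains and is assisted by cochaperones and exchange factors, calnexin and calreticulin retain proteins that carry trimmed sugar chains, and disulfide isomerases form and rearrange the disulfide bonds that proinsulin needs. Many of these genes are induced together in the unfolded protein response, in which the cleaved transcription factor ATF6, bound beside the CCAAT-binding factor NF-Y, acts on the ER stress response element (ERSE).

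That element was read in the promoters of these genes, because it is the classical element of such genes. Promoter windows of 250 bases before and 50 bases after the transcript start were available from RefSeq on the build GRCm38.p6 for 9 of the 10 genes, all but Hyou1. The element was searched on both strands as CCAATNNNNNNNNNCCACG, that is, CCAAT and CCACG with 9 bases of any kind between them. It was present in 5 of the 9 windows and in 39 of all 32851 windows (0.119%). The 6 matches are shown 5′ to 3′ along the strand of the gene with 20 bases on either side, and the capitals mark CCAAT and CCACG, which read ATTGG and CGTGG where the element lies antisense.

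Hsp90b1, distal, sense, chr10:86705618-86705676, minus strand: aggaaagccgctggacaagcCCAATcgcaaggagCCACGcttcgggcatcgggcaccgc
Hsp90b1, proximal, antisense, chr10:86705513-86705571, minus strand: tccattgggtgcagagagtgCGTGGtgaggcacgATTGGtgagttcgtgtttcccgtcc
Hspa5, sense, chr2:34772005-34772063, plus strand: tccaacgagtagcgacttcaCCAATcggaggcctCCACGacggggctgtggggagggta
Calr, antisense, chr8:84847055-84847113, minus strand: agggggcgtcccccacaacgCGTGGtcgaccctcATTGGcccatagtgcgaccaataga
Canx, sense, chr11:50325780-50325838, minus strand: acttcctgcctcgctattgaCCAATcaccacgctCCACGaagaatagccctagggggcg
Pdia6, sense, chr12:17266471-17266529, plus strand: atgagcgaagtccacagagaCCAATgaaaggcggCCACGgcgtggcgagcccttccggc

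The 9 spacer bases differed among the 6 matches. The match nearest to a start was that of Hspa5, between 65 and 47 bases upstream, and the farthest was the distal match of Hsp90b1, between 212 and 194 bases upstream. In Calr the element lay 162 to 144 bases upstream, in Canx 145 to 127, in Pdia6 98 to 80 and in the proximal match of Hsp90b1 107 to 89. The element had no match in the windows of P4hb, Pdia3, Pdia4 and Ppib, which says only that these letters were not found there. CCAAT by itself, which is also contained in every match of the element, was present in 9 of 9 windows against 37.4% of all windows. CCACG by itself, likewise part of every match, was present in 8 of 9 against 32.8%, Pdia3 being the exception. A related element searched on both strands as ATTGGNCCACG, ERSE-II, whose CCACG part is shared with that search, had 0 matches in the 9 windows and was present in 0.0365% of all windows.

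**Figure D1:**
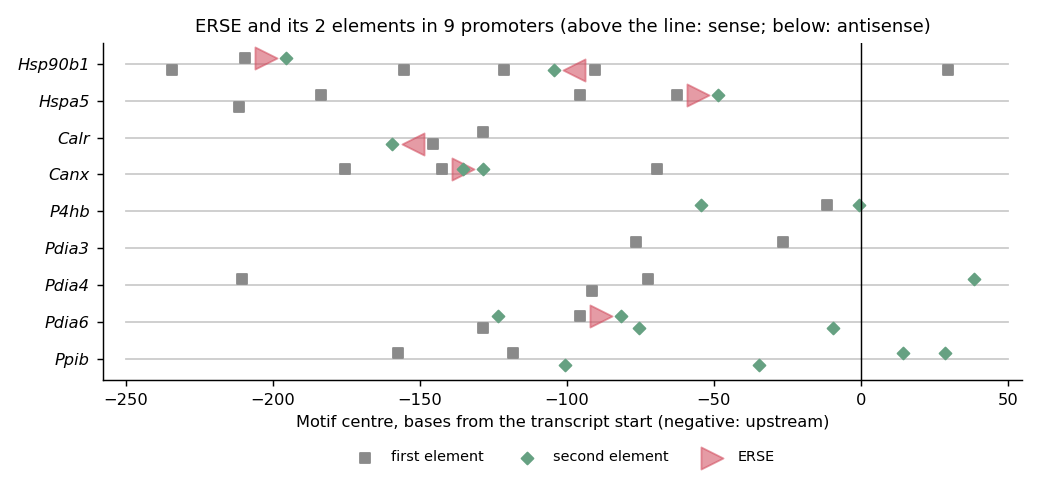
Position of the ERSE (red triangles, pointing in its direction) and of its elements CCAAT (grey squares) and CCACG (green diamonds) in the promoter windows of 9 genes, in bases from the transcript start. Triangles appear in 5 genes, all upstream of the start, and squares in all 9.

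The full upstream stretches of Hspa5, whose element is the closest to the start, and of P4hb, one of the 4 genes with the highest exon densities in WT islets but without a match, are given for comparison, in the same orientation and with the same capitals.

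Hspa5, chr2:34771840-34772089, plus strand: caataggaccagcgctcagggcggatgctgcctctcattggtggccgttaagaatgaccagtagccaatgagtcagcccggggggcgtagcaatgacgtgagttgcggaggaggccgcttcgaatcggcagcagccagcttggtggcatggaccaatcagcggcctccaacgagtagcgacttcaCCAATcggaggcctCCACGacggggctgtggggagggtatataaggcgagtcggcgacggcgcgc
P4hb, chr11:120573254-120573503, minus strand: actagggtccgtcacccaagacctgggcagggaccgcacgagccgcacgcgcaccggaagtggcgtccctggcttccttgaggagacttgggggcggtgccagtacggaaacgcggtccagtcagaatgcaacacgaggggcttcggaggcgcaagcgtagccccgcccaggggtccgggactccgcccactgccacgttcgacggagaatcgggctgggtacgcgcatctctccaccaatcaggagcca

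The libraries set limits on what follows. They held 17213285 to 20307909 mapped reads, of which 1312128 to 2135466 lay in exons, while introns held between 75.7% and 84.2% of all reads in genes. Reads across exon-exon junctions, counted outside mitochondrial genes and predicted genes named Gm, made up 0.147% ± 0.0520 of mapped reads in WT and 0.0446% ± 0.00937 in Trpm7R/R (SD, n = 3 mice each), and each Trpm7R/R library had fewer of them than each WT library. As the background of a library, the median intron density of 5402 genes was used, each having introns of 50000 bases or more in sum, and it lay between 0.218 and 0.270 RPKM, that is, reads scaled to kilobases of sequence and to 1000000 mapped reads. The Y-chromosomal genes Ddx3y and Eif2s3y together had 109, 95 and 88 exon reads in WT against 49, 0 and 0 in Trpm7R/R replicates 4, 6 and 8, so that the effect of genotype cannot be told apart in full from that of sex. Since bulk islets were measured, fewer cells of a type and less RNA per cell cannot be told apart either.

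Hsp90b1, an ATP-dependent chaperone of the ER lumen and relative of cytosolic HSP90, fell in Trpm7R/R islets. It had 134, 172 and 101 exon reads in WT replicates 1, 2 and 3, and 32, 24 and 35 in Trpm7R/R replicates 4, 6 and 8. Every Trpm7R/R library lay well under the lowest WT library. After TMM scaling, which sets libraries to a common level over all genes, the means were 133 ± 31.4 and 30.6 ± 3.00 normalised reads (SD, n = 3 each). The log2 fold change was -2.12 ± 0.31 (SE), a 4.33-fold lower count, with an adjusted p of 0.0412 in the quasi-likelihood test of edgeR. Among the 10 genes it was the only one called, the limit being an adjusted p of 0.05. Over the 11674 genes tested, 0.0257% were called lower by that rule.

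Hspa5 encodes BiP, the most versatile chaperone of the lumen and a restraint on the sensors of ER stress. It had 139, 133 and 100 exon reads in WT against 47, 21 and 42 in Trpm7R/R, and the groups did not overlap. The log2 fold change was -1.73 ± 0.32 (SE), with an adjusted p of 0.0518 in edgeR. Hyou1, a large relative of BiP that also exchanges its nucleotide, was among the sparsest of the 10 genes per kilobase of exon. It had 21, 21 and 30 exon reads in WT and 17, 7 and 5 in Trpm7R/R, while the background alone would give 27.8 to 36.4 reads per library over its 7230 exon bases. Its exon density was below the background in all 6 libraries, so its log2 fold change of -1.26 (adjusted p of 0.577, edgeR) rests on reads that did not stand above it.

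Calr and Canx encode calreticulin and calnexin, of which the former is soluble and binds calcium in the lumen and the latter spans the ER membrane. Calr had 130, 106 and 56 exon reads in WT and 18, 27 and 23 in Trpm7R/R, where even the lowest WT library had more reads than any Trpm7R/R library. Its log2 fold change was -2.04 ± 0.38 (SE; adjusted p of 0.0516, edgeR). Canx had the smallest estimate among the tested genes. There were 49, 58 and 44 exon reads in WT and 29, 18 and 30 in Trpm7R/R, again without overlap, and a log2 fold change of -0.93 ± 0.33 (SE; adjusted p of 0.473, edgeR). Whether Calr and Canx differ from each other in their response was not tested.

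P4hb, the classical protein disulfide isomerase and also a subunit of prolyl 4-hydroxylase, had 136, 119 and 63 exon reads in WT and 23, 18 and 24 in Trpm7R/R. The 3 Trpm7R/R libraries were close together and under every WT library, with normalised means of 104 ± 36.7 and 21.9 ± 1.27 (SD, n = 3 each). The log2 fold change was -2.24 ± 0.35 (SE; adjusted p of 0.0516, edgeR). Pdia3, the isomerase that works with calnexin and calreticulin, had 45, 22 and 14 exon reads in WT and 6, 2 and 5 in Trpm7R/R. Its estimate was the most negative of the 10 genes, at -2.57 ± 0.57 (SE; adjusted p of 0.0985, edgeR), and came from the thinnest counts among those tested. Pdia3 reached 10 reads in no Trpm7R/R library, nor did Pdia4.

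Pdia4, an isomerase with additional thioredoxin-like domains, had 24, 17 and 6 exon reads in WT and 5, 5 and 4 in Trpm7R/R. Its WT replicate 3 was next to the Trpm7R/R libraries, and the gene was left out by the filter on low counts. Pdia6, an isomerase that also acts on the stress sensor IRE1, had 44, 29 and 30 exon reads in WT and 25, 5 and 19 in Trpm7R/R, with a log2 fold change of -1.05 ± 0.47 (SE; adjusted p of 0.795, edgeR). Replicate 6 was the low one among its Trpm7R/R libraries. Ppib, cyclophilin B, speeds up proline isomerisation in the lumen. It had 55, 26 and 17 exon reads in WT and 9, 10 and 20 in Trpm7R/R and was the only one of the 10 genes whose normalised counts overlapped between the groups. Uniquely mapped exon reads of Ppib were 25, 11 and 3 against 3, 7 and 9, so that many of its reads could belong to near-identical copies and its log2 fold change of -1.29 (adjusted p of 0.577, edgeR) is uncertain.

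**Figure D2:**
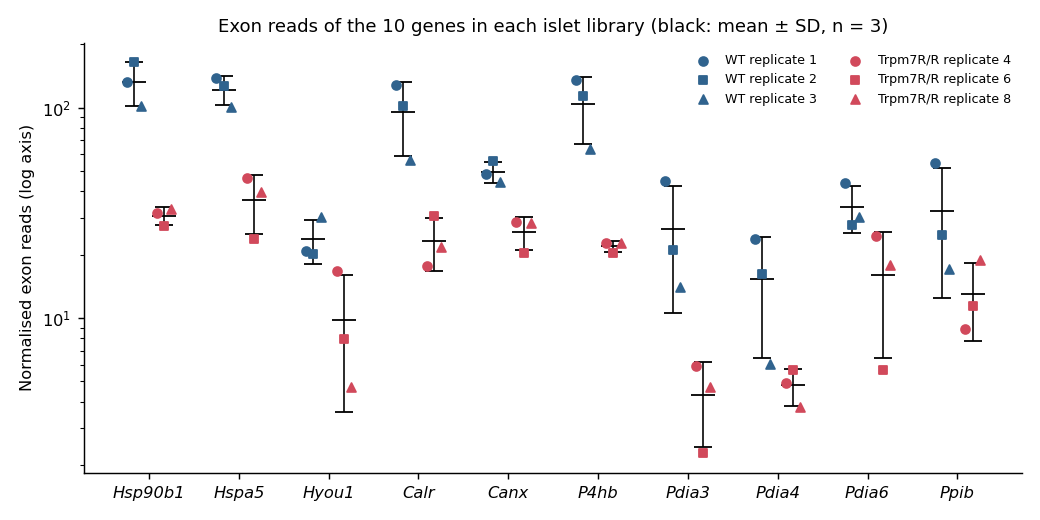
Exon reads of each gene after TMM scaling in the 6 libraries, on a log axis, with the mean ± SD of 3 mice per genotype. WT points lie above all Trpm7R/R points for every gene but Ppib, and for Pdia4 WT replicate 3 lies next to them.

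A fit of all 31854 genes with at least 1 exon read, which needs no filter, covered all 10 genes. All 10 had a negative log2 fold change and an unadjusted p under 0.05, although the sign turned for 4 of them under another scaling, given further on. Such a p was reached in that direction by 3.55% of all genes. At an adjusted p of at most 0.05, Hsp90b1, Hspa5, Calr, P4hb and Pdia3 were lower, 5 of 10 against 0.411% of all genes. The median log2 fold change was -1.63 for the 10 genes and 0.08 for all genes, and for Pdia4 the estimate was -1.60 ± 0.58 (SE; adjusted p of 0.394, edgeR).

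The fit with the filter kept 9 of the 10 genes. Pdia3 passed only through its WT libraries. Hyou1, Pdia6 and Ppib also needed their WT libraries to pass, since each had fewer than 10 reads in some Trpm7R/R library. Counts over these 9 genes therefore describe them and carry no further weight. An unadjusted p under 0.05 with a lower count was reached by 9 of 9 and by 4.57% of all genes tested, and the groups did not overlap for 8 of 9 and for 6.84% of all genes tested. Hsp90b1, Hspa5, Calr, Canx and P4hb reached 10 reads in every library. The median was -1.73 for the 9 genes and 0.01 for all genes tested.

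Leaving out 1 library changed these calls. The call of Hsp90b1 was lost without WT replicate 1 (adjusted p of 0.250, edgeR), WT replicate 2 (0.406), Trpm7R/R replicate 6 (0.310) or Trpm7R/R replicate 8 (0.269), while its log2 fold change stayed between -2.26 and -1.88. Without WT replicate 3, the calls numbered 3, while 32 of 13215 genes tested were called at least 2-fold lower and 1 higher. Without Trpm7R/R replicate 4 they numbered 5, while 151 of 12660 genes tested were called at least 2-fold lower and 45 higher. When Trpm7R/R replicates 6 and 8, those with 0 reads of both Y-linked genes, were left out, 0 of the 10 genes were called, at a median log2 fold change of -1.78, in a fit that assumes the lone Trpm7R/R library to vary like the WT libraries.

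The 10 genes were compared with other genes whose exons stood well above the background. These were 77 genes whose exon density, averaged over all 6 libraries, was 5 or more times that of the background and of the gene's introns. They had 1 or more exon-exon reads per library on average, and none of the 10 genes was among them. Low values in Trpm7R/R could thus keep a gene out. Hsp90b1 and Calr were at 7.67 and 7.65 times the background in WT, but at 1.66 and 1.79 times in Trpm7R/R. The 77 genes had a median log2 fold change of -1.58 (quartiles -1.78 and -1.30), and 65 of the 77 (84.4%) had an unadjusted p under 0.05 and a lower count in Trpm7R/R. The median of the 9 genes tested in the same fit, -1.73, lay within these quartiles. Under scaling by spliced reads, described next, the median of the 77 genes was 0.10, and 28 of them were negative.

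Scaling by spliced reads in place of all exon reads set the libraries to a common amount of reads that can come only from spliced RNA. These include reads of islet hormone genes, so values under this scaling are partly relative to those genes. The 9 beta cell markers, insulin genes included, held 12722, 9564 and 3908 of 29477, 35167 and 16684 such reads in WT. In Trpm7R/R replicates 4, 6 and 8 they held 1119, 825 and 2794 of 8632, 5947 and 10108. Over all genes tested the median log2 fold change went from 0.01 to 1.60. With it 9357 genes were called at least 2-fold higher and 5 at least 2-fold lower. Of the 9 genes tested, 0 were called and 5 were negative, with a median of -0.13, at a difference of -1.74 from the median of all genes. Hsp90b1 had a log2 fold change of -0.47 (95% confidence interval -1.51 to 0.58) under this scaling, P4hb -0.55 and Pdia3 -0.93. The sign turned for Canx (0.66), Pdia6 (0.49), Ppib (0.37) and Hyou1 (0.26), whose intervals all included 0.

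**Figure D3:**
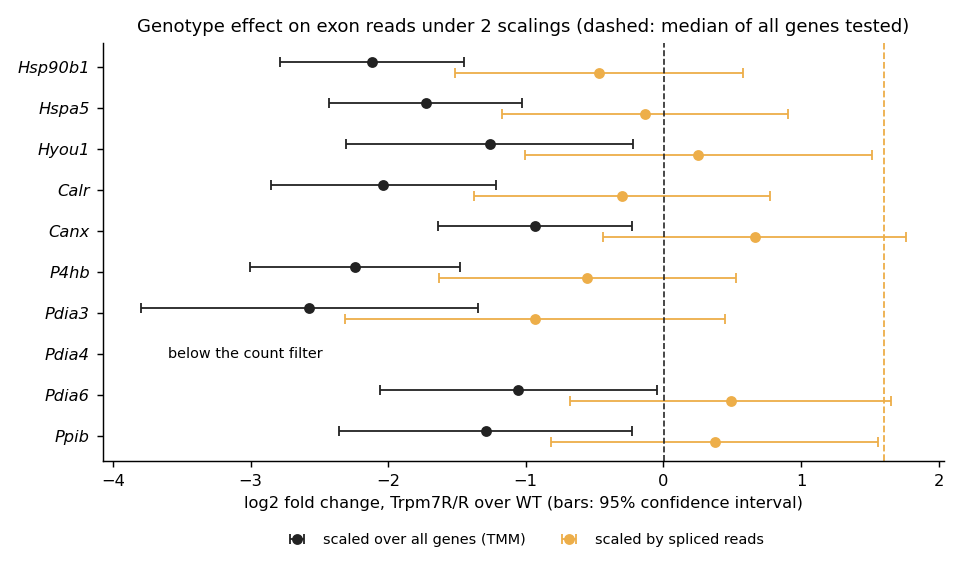
Log2 fold change of exon reads, Trpm7R/R over WT, with its 95% confidence interval, after TMM scaling over all genes (black) and after scaling by spliced reads (yellow). Dashed lines mark the median of all genes tested, at 0.01 and at 1.60, and intervals of the second scaling include 0 for each of the 9 genes.

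Levels were compared between the 10 genes per kilobase of exon and over the background of each library. These densities divide by the whole exon length, and whether reads cover it evenly was not analysed. Exon-exon reads equalled 29.2% to 57.0% of exon reads in Hsp90b1 but 0.00% to 1.68% in P4hb. In WT, P4hb had the highest mean exon density over background, at 8.40 ± 2.86 (SD, n = 3), followed by Hsp90b1 at 7.67 ± 2.05, Calr at 7.65 ± 2.79 and Hspa5 at 6.67 ± 1.01. The ranges of these 4 genes overlapped one another, and no order among them can be given. The next genes were Canx at 2.45 ± 0.37, Ppib at 2.22 ± 1.27, Pdia6 at 2.08 ± 0.43, Pdia3 at 1.94 ± 1.09 and Pdia4 at 1.47 ± 0.82 times the background, again with overlapping ranges. Hyou1 was last at 0.76 ± 0.18. The lowest WT density among the leading 4 genes, 4.53 for Calr in replicate 3, was above the highest among the other 6, 3.65 for Ppib in replicate 1.

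In Trpm7R/R islets the same densities were near the background. They were between 1.66 and 1.89 times the background on average for Hsp90b1, Hspa5, Calr and P4hb, and 1.20 ± 0.18 for Canx (SD, n = 3). For Pdia6 (0.93), Ppib (0.86), Pdia4 (0.44), Hyou1 (0.30) and Pdia3 (0.30) the mean lay below it. The exons of all 10 genes together held 777, 703 and 461 reads in WT replicates 1, 2 and 3, where the background would give 176, 166 and 165. In Trpm7R/R replicates 4, 6 and 8 they held 211, 137 and 207 reads, where it would give 179, 148 and 194. In Trpm7R/R the summed reads were close to the amount expected from the background, but the sum joins genes above it and genes below it. That background is a median over introns of other genes. The introns of P4hb, Hsp90b1, Calr and Hspa5 themselves had 0.18, 0.35, 0.83 and 1.64 times its density on average in Trpm7R/R. Hsp90b1 also had 13, 7 and 16 exon-exon reads there, which come from spliced RNA. How far the fold changes are limited by the background was not tested.

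**Figure D4:**
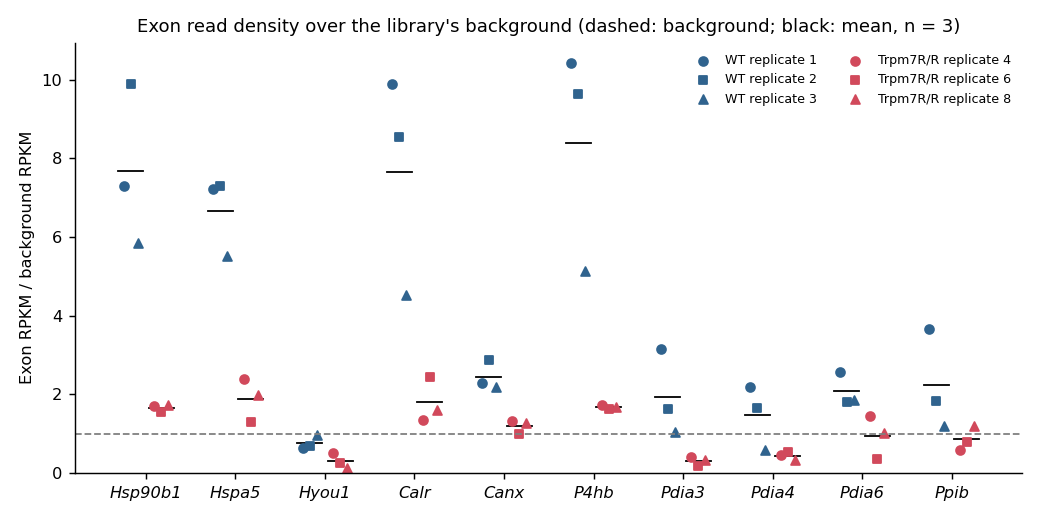
Exon density of each gene divided by the background of the same library, with the mean of 3 mice (black). The dashed line is the background, and Hsp90b1, Hspa5, Calr and P4hb lie at 4.53 to 10.4 times that level in WT libraries and at 1.29 to 2.44 times in Trpm7R/R libraries.

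Exon-exon reads, which come from spliced RNA, were few. Hsp90b1 had 50, 98 and 42 of them in WT and 13, 7 and 16 in Trpm7R/R, again without overlap. Among the spliced reads of 181 genes abundant enough to test, scaled among themselves, its log2 fold change was -0.83 ± 0.38 (SE), with an unadjusted p under 0.05 and an adjusted p of 0.223 in edgeR. Such an unadjusted p with a lower count was reached by 6.08% of these genes. The other 9 genes were too sparse for that test. Ppib had 22, 11 and 3 exon-exon reads in WT and 2, 3 and 4 in Trpm7R/R, Calr had 6, 13 and 6 against 0, 3 and 3, and Pdia3 had 12, 4 and 2 against 0, 0 and 0. For Hspa5, P4hb and Hyou1 no library had more than 4.

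Together the 10 genes had 110, 151 and 58 exon-exon reads in WT and 27, 15 and 27 in Trpm7R/R. As a share of all spliced reads outside mitochondrial and predicted genes, these were 0.373%, 0.429% and 0.348% in WT and 0.313%, 0.252% and 0.267% in Trpm7R/R. The means were 0.383% ± 0.0418 and 0.277% ± 0.0316 (SD, n = 3 each), and the groups did not overlap, which with 3 mice against 3 gives a 2-sided exact permutation p of 0.1, the smallest possible. Hsp90b1 alone held 13 of 27, 7 of 15 and 16 of 27 of the exon-exon reads in Trpm7R/R. Without the insulin genes in the denominator the shares were 0.562% ± 0.104 and 0.337% ± 0.0393, again without overlap. Over all exon-exon reads, mitochondrial and predicted genes included, they were 0.0859% ± 0.0389 and 0.0207% ± 0.00529. Trpm7R/R minus WT, the means differed by -0.106 percentage points in the first share, -0.224 without the insulin genes and -0.0652 over all exon-exon reads. The size of this difference thus depends on the denominator. Relative to the exon reads of Ins2, the major insulin gene of the mouse, exon reads of the 10 genes amounted to 2.20%, 2.48% and 3.93% in WT and 5.59%, 3.76% and 2.15% in Trpm7R/R, and the groups overlapped.

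For introns of the same genes no difference was detected, but their reads were near or below the background in both genotypes. Mean intron density was 0.23 (P4hb) to 1.56 (Canx) times the background in WT. In Trpm7R/R it was 0.18 (P4hb) to 1.64 (Hspa5) times. Reads at this level cannot show whether unspliced RNA of these genes differed. The 10 genes had 489, 428 and 410 intron reads in WT and 378, 401 and 434 in Trpm7R/R, or 23.9 ± 1.92 and 22.0 ± 0.69 per 1000000 mapped reads (SD, n = 3 each). Of the 7 genes with enough intron reads to be tested, 0 were called by edgeR or DESeq2 and 0 had an unadjusted p under 0.05 in edgeR, which 1.87% of all 20921 genes reached in either direction. Their log2 fold changes were between -0.58 (Hyou1) and 0.18 (Pdia6), with a median of -0.33. Canx had the most intron reads, 200, 189 and 166 in WT and 97, 222 and 222 in Trpm7R/R, with Trpm7R/R replicate 4 below all others. For Hsp90b1 the interval of the intron log2 fold change was -1.28 to 0.60, which did not reach the exon estimate of -2.12. Its introns lay at 0.45 times the background in WT and 0.35 times in Trpm7R/R, so this interval largely describes background reads.

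**Figure D5:**
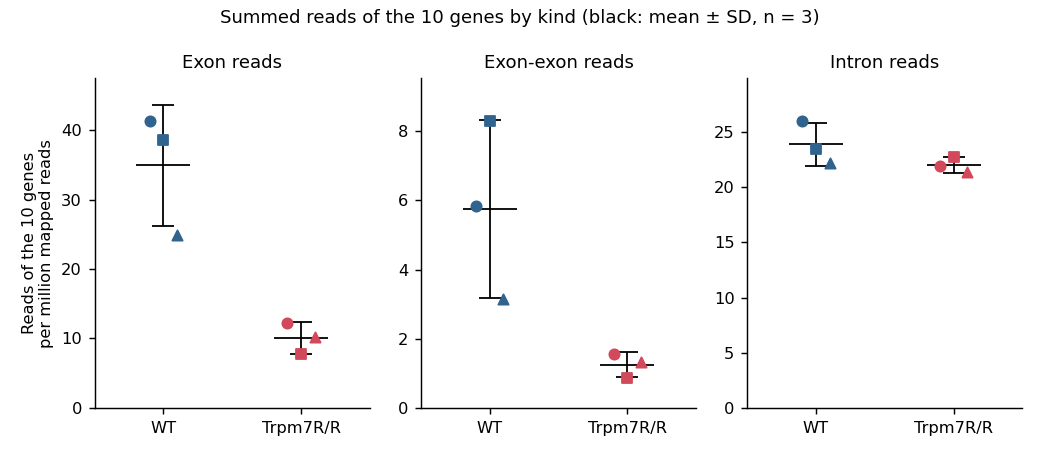
Reads of the 10 genes per 1000000 mapped reads in each library, by kind of read, with the mean ± SD of 3 mice per genotype. Means were 34.9 in WT and 10.1 in Trpm7R/R for exon reads, 5.76 and 1.25 for exon-exon reads, and 23.9 and 22.0 for intron reads.

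The part that each gene held of the summed exon density of the 10 genes is given as a description, since 3 mice against 3 cannot reach an exact permutation p below 0.1. Canx made up 4.64%, 6.26% and 7.57% of the summed RPKM of the 10 genes in WT and 11.2%, 9.97% and 11.3% in Trpm7R/R. P4hb made up 21.1%, 21.1% and 17.8% in WT and 14.5%, 16.4% and 14.9% in Trpm7R/R, and Pdia3 6.38%, 3.55% and 3.60% against 3.46%, 1.66% and 2.82%. These 3 genes are shown because their values separated by genotype, and no difference in a share passed a test. Hspa5 held 16.5% ± 2.31 in WT and 16.9% ± 3.65 in Trpm7R/R (SD, n = 3 each). These shares include the background, and its part in them was not tested.

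Other genes of protein folding and secretion were counted in the filtered fit from lists that leave out the 10 genes. In edgeR's quasi-likelihood test 0 of them passed the adjusted limit of 0.05, and 0 had an unadjusted p under 0.05 with a higher count. The same test without the filter called 1 of 34 translocon and signal peptide genes (Sec62) lower. It also called 2 of 30 chaperones of the cytosol and mitochondria (Hsp90ab1 and Ptges3) lower. Of 43 other ER folding factors and 29 unfolded protein response genes it called 0. Other tests of the same genes called some of them lower. The likelihood ratio test of edgeR called 5 translocon and signal peptide genes (Sec61b, Sec61g, Sec62, Rpn1 and Rpn2), Ero1b, and 3 chaperones of the cytosol (Hsp90aa1, Hspa8 and Ptges3), DESeq2 called Sec61g, Sec62, Rpn1 and Hsp90aa1, and voom called 0. Sec61b, Sec61g and Hsp90ab1 are named after their values were seen. Of the translocon and signal peptide genes, which bring chains into the ER, 28 of 34 were tested, and 13 had an unadjusted p under 0.05 with a lower count, at a median log2 fold change of -0.88. Sec62, which helps posttranslational import, had 79, 169 and 87 exon reads in WT and 37, 21 and 43 in Trpm7R/R, a log2 fold change of -1.69 (adjusted p of 0.0958, edgeR). Rpn1 and Rpn2, subunits of the oligosaccharyltransferase, had log2 fold changes of -1.67 and -1.47.

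Of 43 other ER folding factors, 30 were tested, 6 had an unadjusted p under 0.05 with a lower count, and the median was -0.16. Ero1b, the oxidase that recharges disulfide isomerases in beta cells, had 110, 66 and 42 exon reads in WT and 20, 19 and 32 in Trpm7R/R (log2 fold change of -1.58, adjusted p of 0.146, edgeR), and its window also held an ERSE. Manf, a secreted and ER-resident factor, had 74, 39 and 38 against 22, 16 and 18. The sensors and effectors of the unfolded protein response had a median of -0.31, with 2 of the 19 tested at an unadjusted p under 0.05, both with a lower count. Herpud1, a part of the degradation machinery that ER stress induces, had 30, 30 and 29 exon reads in WT and 10, 8 and 17 in Trpm7R/R.

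Chaperones of the cytosol and mitochondria, which do not act in the ER, had a median of -0.80, and 8 of the 21 tested had an unadjusted p under 0.05 with a lower count. Among them, Hsp90aa1, the cytosolic relative of Hsp90b1, had 323, 764 and 325 exon reads in WT and 210, 131 and 172 in Trpm7R/R. Hspa8, the constitutive cytosolic relative of Hspa5, had 177, 178 and 128 against 69, 62 and 82. Under scaling by spliced reads the sign turned for Ero1b, Manf, Herpud1, Rpn2, Hsp90aa1 and Hspa8, as it did for 4 of the 10 genes.

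Over the 6 libraries, the pattern of the tested genes, taken as the mean of their standardised log2 counts, was most alike in Acly (Pearson r of 0.977), Myl6 (0.977), Hook3 (0.974), Rpl41 (0.974) and Hspa8 (0.971), out of 2173 genes with a mean of at least 50 normalised reads. These correlations describe 6 libraries in 2 groups that share depth and background, and carry no test. Log2 fold changes were -2.06 for Acly, -1.77 for Myl6 and -0.30 for Hook3. Acly is a lipogenic enzyme, Myl6 a myosin light chain and Rpl41 a ribosomal protein.

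Markers of islet cells had lower values in Trpm7R/R libraries beside the 10 genes. All 9 beta cell markers had a negative log2 fold change, 7 of them at an unadjusted p under 0.05 in edgeR, and the mean density of the list was 356 to 868 times the background in WT and 118 to 239 times in Trpm7R/R. Ins2, Ins1 and Iapp, at 2631, 859 and 312 times the background over the 6 libraries, weigh heavily in this mean. The markers Ucn3, Mafa and Nkx6-1 had 0 exon-exon reads in all 6 libraries. The alpha cell list was at 63.6 to 162 and 17.6 to 34.9 times the background, and the PP cell list at 578 to 969 and 94.5 to 179 times. Acinar cells, which are rich in ER, were represented by 19 markers at 1.10 to 2.11 times the background in WT and 0.85 to 1.43 times in Trpm7R/R, and 0 of the 4 tested had an unadjusted p under 0.05. Of the 8 markers of plasma and B cells, Jchain, Mzb1, Cd79b, Ighm, Igkc and Sdc1 had 0 exon-exon reads in all 6 libraries. The part of these cell types and of the amount of spliced RNA in the values of the 10 genes was not tested.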

How the data were processed

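Islet RNA of 6 mice was sequenced after low-input library preparation, and the authors deposited 1 table per library. These tables hold counts, that is, raw reads in the exons, the introns and the exon-exon junctions of each gene, as total and uniquely mapped reads, and RPKM values that the authors computed from exon reads, exon length and mapped reads. Their notes name the build mm10. Aligner and counter: not given in the sources used here. Because positions of genes in these tables and in GRCm38 differ, only chromosomes are given. The authors' 3 tables of their own comparison (fold changes and p-values) were not used.

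Groups follow the genotype in the labels. Mice are the replicates, and p-values measure the spread between them. Counts of each kind were compared with edgeR 4.0.16 (R 4.3.3; quasi-likelihood test), TMM scaling, genotype as sole term, a filter at a minimum of 10 counts (filterByExpr) and Benjamini-Hochberg adjustment over all genes tested. The limit for a call was an adjusted p of 0.05, with a change of at least 2-fold as well where stated. Effective library sizes of exon reads were 1369590 to 1646670. Single values were compared by exact permutation (2-sided), for which 3 against 3 mice allow no p below 0.1. Replicate libraries of a genotype differed by 1.92 to 7.71 times their counting noise, so none is a copy of another.

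The 10 genes and all lists were chosen with earlier results of these data known. The 10 genes are all described. Of each other list, the 3 genes with the smallest p could be named, along with the 5 genes most alike in pattern, islet hormones and Trpm7. Trpm7 itself, whose point mutation need not alter its level, so that it does not check the labels, had 97, 65 and 53 exon reads in WT and 35, 76 and 85 in Trpm7R/R.

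Alternatives were a fit without the filter, the Wald test and size factors of DESeq2 1.42.0, scaling by mapped or by spliced reads, a mean of at least 50 counts, the likelihood ratio test, voom of limma 3.58.1, uniquely mapped reads, total gene reads, autosomes only and leaving out each library. The fit without Trpm7R/R replicates 6 and 8 was chosen after seeing the data. The fits were tested on simulated data. Promoter windows came from RefSeq (GRCm38.p6). Tables and plots were made with Python 3.11.15, numpy 2.4.6, pandas 2.3.3, scipy 1.17.1 and matplotlib 3.10.9.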

Additional observations from a re-analysis of the deposited data

How the results depend on the processing

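No paired analysis was possible because the genotypes share no replicate number. In the counts that follow, a call over all genes also required a change of at least 2-fold, a limit not set for the 10 genes. Against 3 genes called on exon reads and 1 of the 10 genes, the counts were 141 and 5 without the filter, 97 and 5 with the Wald test of DESeq2, 162 and 5 with the likelihood ratio test, 46 and 4 with scaling by mapped reads, 30 and 4 on autosomes, 24 and 3 with a mean of at least 50 counts, 0 and 0 on total gene reads, 8 and 0 without Trpm7R/R replicates 6 and 8 (chosen after seeing the data), and 9362 and 0 with scaling by spliced reads. DESeq2 size factors and voom each called 0 of the 10 genes. Of the 141 genes 10 were higher, and of the 9362 genes 9357 were higher. Leaving out 1 library gave 0 to 196 genes (151 lower and 45 higher without Trpm7R/R replicate 4) and 0 to 5 of the 10. On exon-exon reads, where 0 genes were called, the count was 4 without the filter, all lower, and 21 with DESeq2 (1 lower, 20 higher). It was 127 with scaling by mapped reads, all lower (Hsp90b1 included, 1 of the 10 genes), and 12 with scaling by library sums, all higher. With 1 library left out it was 0 to 32, the most without WT replicate 3 (3 lower, 29 higher). On intron reads, where 0 were called, the count was 20 with DESeq2 (15 lower, 5 higher). With 1 library left out it was 0 to 308, the most without Trpm7R/R replicate 4 (148 lower, 160 higher). The cause was not tested.

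With scaling by spliced reads the log2 fold change turned positive for Hyou1 (0.26), Canx (0.66), Pdia6 (0.49), Ppib (0.37), Ero1b (0.092), Manf (0.25), Herpud1 (0.24), Atf6b (0.47), Atf4 (0.38), Rpn2 (0.18), Hspa8 (0.50), Hsp90aa1 (0.28), Hook3 (1.28) and Trpm7 (1.60). Trpm7 also turned positive without the filter (0.040) and ranged from -0.29 to 0.28 with 1 library left out. On intron reads, leaving out 1 library turned the sign for Canx (-0.33 to 0.30), Pdia4 (-0.60 to 0.086), Pdia6 (-0.20 to 0.45) and Ppib (-0.52 to 0.20). Over the exon alternatives, values of the 10 genes kept direction and side of the threshold 123 times, passed it anew 26 times, no longer passed it 9 times and reversed 4 times. The difference in the share of spliced reads stayed negative under all its alternatives, between -0.12 and -0.08 percentage points with 1 library left out. Reads across junctions made up 0.0337% to 0.193% of mapped reads, and 1 of the 10 genes, Hsp90b1, had enough of them to be tested.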

Other observations

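Outside the 10 genes, promoter windows with the ERSE were found in 3 of 33 other ER folding factors (Creld2, Dnajc3 and Ero1b), in 2 of 27 sensors and effectors of the unfolded protein response (Derl3 and Syvn1), in 0 of 26 translocon and signal peptide genes and in 0 of 24 chaperones of the cytosol and mitochondria, counting 1 entry per gene.

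The ratio of exon-exon to exon reads differed among the 10 genes in the same libraries. For Hsp90b1, exon-exon reads equalled 29.2% to 57.0% of exon reads over the 6 libraries, and for P4hb, whose exon density in WT was similar, 0.00% to 1.68%. Hspa5 had 0.00% to 8.51%, although it had 21 to 139 exon reads per library. Exons of P4hb, Hspa5 and Hsp90b1 span 2861, 4229 and 4032 bases in the files, and how these reads lie along the transcripts was not analysed here.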
